A study of Mus musculus with 15 samples.

Results

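The nuclear genes for the subunits of oxidative phosphorylation were followed across 15 Renca tumors. Members were the genes whose symbols begin with Nduf, Uqcr, Cox4 to Cox8 or Atp5, or are *Sdha*, *Sdhb*, *Sdhc* or *Sdhd*, and 8 Ndufaf assembly factors with matching names were left out. This rule used no measured value and found 83 of the 18279 genes. By their known place in the respiratory chain 36 belong to complex I, 4 to complex II, 8 to complex III, 18 to complex IV and 15 to complex V. The other 2, *Atp5s* and *Atp5sl*, carry the name but are not subunits of the ATP synthase, and both are counted among the members. The annotation used here lists *Atp5sl* as *Dmac2*. *Ndufa4* was placed in complex IV, where its protein is now known to sit. All 83 members had reads in at least 1 tumor, and 82 averaged 10 or more normalized counts over the tumors.

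Renca is a renal carcinoma cell line of BALB/c mice, and the tumors were grown under the skin of female BALB/c mice after injection of the cells in Matrigel. The 5 control tumors (tumors 1 to 5) are labelled as grown from parental cells, whereas the study describes cells that received a control knockout plasmid. The 5 tumors of clone 4 (tumors 6 to 10) and the 5 of clone 18 (tumors 11 to 15) carried a *Pbrm1* knockout made with transient Cas9. Each knockout group came from 1 sorted single-cell clone, so the knockout and the clone cannot be told apart within a group. The mice were 4 to 6 weeks old when bought. The labels do not say which mice, if any, received the PD-1 antibody that the protocol mentions, nor do they name other treatments. Bulk RNA was sequenced from whole tumors, so fewer cells of a type and less RNA per cell cannot be told apart.

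Oxidative phosphorylation passes electrons from NADH and succinate through complexes I to IV of the inner mitochondrial membrane to oxygen. The protons pumped on the way drive complex V, the ATP synthase. Most subunits are encoded in the nucleus and are assembled with a few encoded by mitochondrial DNA. The nuclear factors NRF1, GABP and YY1 are known regulators of many of these genes, and kidney tubule cells are rich in mitochondria.

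*Pbrm1*, the targeted gene, ranged from 7452 to 9871 normalized counts in the control tumors and from 2484 to 3138 in the 10 knockout tumors, without overlap. The tumors held 32924414 to 49099168 reads on genes, so sampling noise was small for all members apart from the low isoforms named below. Of 10 renal tubular markers, 1 had a mean under 10 in each group, and their summed normalized count was 114806 to 138544 (median 128014) in control, 98526 to 128558 (110832) in clone 4 and 104420 to 120544 (112227) in clone 18, with overlap. The 6 macrophage markers summed to 71247 to 93586 in control, 55960 to 70438 in clone 4 and 51385 to 69192 in clone 18, so that every knockout tumor lay below every control tumor. The ranges of the 3 groups for T cell markers, 542.5 to 1683 in control, 584 to 870.4 in clone 4 and 530.1 to 716.6 in clone 18, overlapped. The part of cell composition in the results on the members was not tested.

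Promoters are shown for 5 members, since they include the 3 members of chromosome 16 (*Atp5j*, *Atp5o* and *Ndufb4*), all called lower in clone 18, and the complex I genes with the largest fall and rise in both clones (*Ndufs4* and *Ndufb2*). They are from RefSeq on GRCm38.p6, run 5′ to 3′ on the gene's strand, from 250 bases before the transcription start to 50 after it, and were found for 66 of the 83 members. Capitals mark matches on either strand to the ETS motif CCGGAAG (the core bound by GABP) or to the YY1 motif AAGATGGC.
*Atp5j*, chr16:84834927-84835226, minus strand: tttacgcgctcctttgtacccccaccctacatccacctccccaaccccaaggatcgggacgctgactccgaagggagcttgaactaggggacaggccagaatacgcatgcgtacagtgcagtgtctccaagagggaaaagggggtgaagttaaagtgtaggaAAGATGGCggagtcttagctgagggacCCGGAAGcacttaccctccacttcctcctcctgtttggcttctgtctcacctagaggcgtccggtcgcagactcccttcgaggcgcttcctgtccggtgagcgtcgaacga
*Atp5o*, chr16:91931581-91931880, minus strand: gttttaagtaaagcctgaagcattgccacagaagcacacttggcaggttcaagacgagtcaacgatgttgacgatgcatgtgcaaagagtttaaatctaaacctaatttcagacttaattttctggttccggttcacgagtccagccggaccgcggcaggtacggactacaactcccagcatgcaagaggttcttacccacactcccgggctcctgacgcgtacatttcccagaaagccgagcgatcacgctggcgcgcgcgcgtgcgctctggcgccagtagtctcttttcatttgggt
*Ndufb4*, chr16:37654319-37654618, minus strand: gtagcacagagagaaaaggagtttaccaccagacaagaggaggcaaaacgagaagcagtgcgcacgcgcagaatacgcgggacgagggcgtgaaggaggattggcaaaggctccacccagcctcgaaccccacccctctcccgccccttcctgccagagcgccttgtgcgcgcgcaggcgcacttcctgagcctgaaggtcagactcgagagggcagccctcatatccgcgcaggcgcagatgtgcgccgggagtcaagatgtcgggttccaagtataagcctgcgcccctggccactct
*Ndufs4*, chr13:114388045-114388344, minus strand: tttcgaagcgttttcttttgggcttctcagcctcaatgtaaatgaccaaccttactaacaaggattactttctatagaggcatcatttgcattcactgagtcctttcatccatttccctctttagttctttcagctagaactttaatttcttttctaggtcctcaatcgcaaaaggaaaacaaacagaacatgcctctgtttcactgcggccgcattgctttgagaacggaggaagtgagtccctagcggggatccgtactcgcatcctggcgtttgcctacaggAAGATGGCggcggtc
*Ndufb2*, chr6:39592315-39592614, plus strand: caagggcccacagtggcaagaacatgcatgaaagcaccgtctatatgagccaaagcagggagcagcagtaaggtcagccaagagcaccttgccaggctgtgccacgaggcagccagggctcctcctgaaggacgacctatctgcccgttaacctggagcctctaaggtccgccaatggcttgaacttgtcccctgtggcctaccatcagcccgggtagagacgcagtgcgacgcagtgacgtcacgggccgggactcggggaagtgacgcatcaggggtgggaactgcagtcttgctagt

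Of these 5 windows, that of *Atp5j* held 1 ETS and 1 YY1 match and that of *Ndufs4* held 1 YY1 match. No match was found in the windows of *Atp5o*, *Ndufb4* and *Ndufb2*, nor in a second, further upstream window of *Atp5j*. The start of *Atp5j* lies 148 bases from the start of *Gabpa* on the other strand, the gene for the DNA-binding subunit of GABP, so much of this window is the promoter of both. Over all 66 members the ETS motif was found in 16 (24.2%, against 9.93% of 27025 genes), the YY1 motif in 9 (13.6%, against 3.19%) and the palindromic NRF1 motif in 5 (7.58%, against 1.07%). No matches overlapped in a window of a member, and a match is a description of the letters, not a binding site.

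As a group the members differed little on average between the control tumors and those of either clone. Together they held 1.05% ± 0.0361 (SD, n = 5) of the normalized counts in control, 1.03% ± 0.0605 in clone 4 and 1.04% ± 0.0511 in clone 18. Their median log2 difference from control was -0.07 in clone 4 and -0.05 in clone 18, beside -0.01 and -0.02 over all 18250 genes tested. Under quantile normalization the median of the members was 0.000214 in clone 18. All log2 differences here are of log2(normalized count + 1), with their standard error from limma and p-values adjusted by the Benjamini-Hochberg method over all genes, at a threshold of 0.05.

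Of the 83 members, 10 passed the threshold in clone 4 (1 higher and 9 lower), where 16.8% of all genes did (6.79% higher, 10.0% lower). In clone 18, 11 members passed (3 higher and 8 lower), where 24.7% of all genes did (10.4% higher, 14.2% lower). For the 10 knockout tumors together, 1 member was higher and 11 were lower, beside 22.1% of all genes (9.23% higher, 12.9% lower). That fit has no term for the clone, so its p-values measure the spread among tumors, not among knockout clones. Thus, with both directions together, 12.0% of the members were called in clone 4 and 13.3% in clone 18, smaller shares than over all genes. For lower calls alone, clone 4 had 9 of 83 members beside 10.0% of all genes. Clone 18 had 8 of 83 beside 14.2%. After a correction for exon length, described below, 11 members were lower in clone 4, beside 1913 of 17949 genes. In clone 18 it was 18 members, beside 2625 genes. None of these differences was tested. Between the clones 2 members were higher in clone 18 and 0 lower by limma, edgeR or DESeq2, where 4.62% of all genes were called by limma (2.49% higher, 2.13% lower). Of the members, 8 had an unadjusted p under 0.05. The share of all genes at an unadjusted p under 0.05 is not given here or below, so such counts have no background beside them. Both clones share the same control tumors, and 1 member rose in both (*Ndufb2*, beside 4.62% of all genes) while 6 fell in both (*Atp5j*, *Atp5o*, *Atp5sl*, *Cox6a2*, *Cox6c* and *Ndufs4*, beside 7.08% of all genes). A total of 69 members passed in none of the comparisons.

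The groups did not overlap for 1 member that was higher and 6 that were lower in clone 4, where this held for 5.80% and 8.20% of all genes (14.0% in all). In clone 18 it held for 2 higher and 4 lower members, beside 7.24% and 9.82% of all genes (17.1% in all). Between the clones 2 members were apart and higher in clone 18 and 1 was apart and lower, beside 2.64% and 2.88% (5.52% in all). All 10 knockout tumors lay above every control tumor for *Ndufb2* and below for *Atp5j*, which held for 3.11% and 4.87% of all genes (7.98% in all).

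These counts moved with the scaling. Under quantile normalization 6 members were lower and 1 higher in clone 4, and 5 were lower and 5 higher in clone 18, while over all genes the share of calls that were higher moved from 40.4% to 51.0% in clone 4 and from 42.3% to 53.4% in clone 18. After a correction for exon length, 11 members were lower in clone 4 and 18 in clone 18. Over the 17949 annotated genes in that fit, 1913 were lower in clone 4 and 2625 in clone 18, beside 1818 and 2583 without the correction. Whether the members differ from all genes in this was not tested. The members are short, with a median of 1587 bases of exon (360 to 8086) beside 3884 over the 16258 annotated genes with a mean of at least 10. Of the 3252 such genes with 55 to 1927 bases, 49 were members. The median log2 difference of these 49 was -0.09 in clone 4 and -0.08 in clone 18, beside -0.01 and 0.02 over the 3252.

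**Figure D1:**
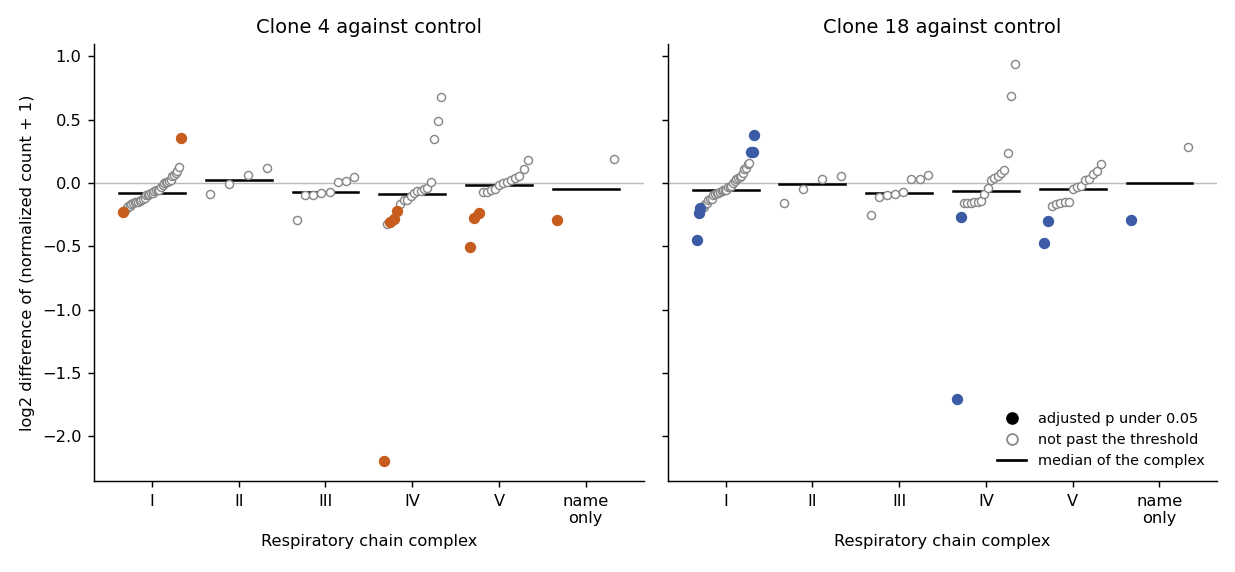
Each point is 1 of the 83 members, plotted by its log2 difference from the control tumors (vertical axis) within its complex (horizontal axis), in clone 4 (left) and clone 18 (right). Filled points passed the threshold, and black lines are the medians of the complexes, which all lie between -0.09 and 0.03.

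Complex I, the NADH dehydrogenase, had 1 called rise and 1 called fall among its 36 members in clone 4, and 3 rises and 3 falls in clone 18. Its median log2 difference was -0.08 in clone 4 and -0.05 in clone 18. For this and the other complexes, the shares over all genes were 6.79% higher and 10.0% lower in clone 4. In clone 18 they were 10.4% and 14.2%, and no complex was tested against them. Among the 7 core subunits, which carry the electron path, *Ndufs7* rose in clone 18 and the other 6 did not pass in either clone. The 29 accessory subunits held the remaining calls.

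*Ndufs4*, an accessory subunit needed for a stable complex I (chromosome 13, 114287795 to 114388258), had the largest fall of the complex in both clones. Its normalized counts were 2307, 2352, 2412, 2752 and 2323 in control, 1986, 1940, 1998, 2400 and 2042 in clone 4, and 1912, 1666, 1799, 1771 and 1723 in clone 18. All 5 tumors of clone 18 lay below every control tumor, and 4 of 5 did in clone 4, where tumor 9 lay within the control range. The log2 difference was -0.23 ± 0.07 (SE) in clone 4 (adjusted p = 0.0295, limma) and -0.45 ± 0.07 in clone 18 (adjusted p = 0.000178). Every tumor of clone 18 also lay below every tumor of clone 4, with a log2 difference of -0.22 ± 0.07 that missed the threshold (adjusted p = 0.0795, limma). In clone 4 the limma call was lost when any of tumors 3, 4, 6, 7, 8 and 10 was left out, at an adjusted p of up to 0.0832, and in the two-sample test (adjusted p = 0.0713).

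*Ndufb2*, an accessory subunit of the membrane arm (chromosome 6, 39592574 to 39603382), was the member that rose in both clones. Control tumors had 431.7, 368.2, 402.5, 414.6 and 366.9 normalized counts, clone 4 had 580.5, 454.9, 490.4, 551.8 and 467.9, and clone 18 had 516.4, 602.9, 547.1, 464.1 and 463.5. All 10 knockout tumors lay above every control tumor. Its log2 difference was 0.36 ± 0.10 in clone 4 (adjusted p = 0.0203, limma) and 0.38 ± 0.10 in clone 18 (adjusted p = 0.00961). In clone 4 the limma call was lost when any of tumors 2, 5, 6 and 9 was left out (adjusted p up to 0.0611). The gene overlaps *Gm42420* on its own strand and *Braf* on the other, and *Braf* had log2 differences of 0.22 (adjusted p = 0.121, limma) and 0.08 (adjusted p = 0.590). Whether the reads were counted by strand is not given in the sources used here, so reads of overlapping genes cannot be told apart. Per kilobase of exon *Ndufb2* had 84.4 normalized counts over all tumors, the lowest level in complex I. The next lowest in the complex were *Ndufab1* at 176.7 and *Ndufb7* at 679.7. Whether reads of *Ndufb2* were left uncounted because of the overlaps was not tested, so the rise is shown for the counted reads only.

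*Ndufb10*, another subunit of the membrane arm, differed between the clones. Its normalized counts were 3188, 3113, 3416, 3669 and 3087 in control, 3234, 3083, 3229, 3251 and 2954 in clone 4, and 3914, 3593, 4550, 3540 and 3952 in clone 18. Clone 18 lay above clone 4 without overlap, and 3 of its 5 tumors lay above every control tumor. This gave a log2 difference of 0.31 ± 0.07 between the clones (adjusted p = 0.0164, limma), 0.24 ± 0.07 for clone 18 against control (adjusted p = 0.0173) and -0.06 ± 0.07 for clone 4 (adjusted p = 0.617). Both calls were lost in the two-sample test (adjusted p = 0.0774 between the clones and 0.0686 for clone 18 against control).

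The other 3 called members of complex I, chosen for description after their values were seen, moved past the threshold in clone 18. *Ndufs7*, a core subunit with an iron-sulfur cluster, rose by 0.25 ± 0.08 (adjusted p = 0.0257, limma), from a control mean of 2421 ± 160 (SD, n = 5) to 2883 ± 351. The accessory subunit *Ndufb3* had log2 differences of -0.20 ± 0.06 (adjusted p = 0.0275, limma) and -0.12 ± 0.06 in clone 4 (adjusted p = 0.212). *Ndufb4* had -0.24 ± 0.08 in clone 18 (adjusted p = 0.0437, limma), with all 5 tumors below every control tumor, and -0.18 ± 0.08 in clone 4 (adjusted p = 0.149). The call of *Ndufb4* in clone 18 held in 5 of 12 other settings and was lost without any of tumors 1, 2, 3, 4, 6, 8, 11, 12 and 15, that of *Ndufb3* was lost without any of tumors 3, 4, 13 and 14, and that of *Ndufs7* without any of tumors 2, 11, 13 and 15. The call of *Ndufb3* was also lost under quantile normalization and chromosome centring (adjusted p up to 0.0582), and that of *Ndufs7* in the two-sample test (0.0952).

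Complex II, the succinate dehydrogenase that also serves the citric acid cycle, had 0 of 4 members past the threshold in any of the 4 comparisons by limma, edgeR or DESeq2, and 1 at an unadjusted p under 0.05 in clone 18 and 0 in clone 4 by limma. *Sdha*, the flavoprotein that binds succinate, had mean normalized counts of 9386 ± 338 (SD, n = 5) in control, 10198 ± 453 in clone 4 and 9616 ± 716 in clone 18. *Sdhb*, the iron-sulfur subunit, had 9290 ± 612, 9202 ± 445 and 8971 ± 719. The membrane anchor *Sdhc* had 5247 ± 199, 5491 ± 394 and 5455 ± 396. *Sdhd*, the other anchor, had 3937 ± 252, 3709 ± 209 and 3534 ± 189, and its log2 difference of -0.15 ± 0.06 in clone 18 missed the threshold (adjusted p = 0.0672, limma). It passed after the length correction and with the chromosome centring described below. The complex held 0.0643% in control, 0.0662% in clone 4 and 0.0645% in clone 18 of the normalized counts, as group means.

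Complex III, which hands electrons from ubiquinol to cytochrome c, had 0 of 8 members past the threshold in these comparisons by limma, edgeR or DESeq2, with 1 at an unadjusted p under 0.05 in clone 4 and 0 in clone 18 by limma. The core proteins *Uqcrc1* and *Uqcrc2* had log2 differences of -0.08 ± 0.05 and 0.05 ± 0.06 in clone 4 and of -0.07 ± 0.05 and 0.03 ± 0.06 in clone 18. *Uqcrfs1*, the iron-sulfur protein that takes up the electrons, had 0.02 ± 0.05 and -0.10 ± 0.05. *Uqcrq* had the largest differences of the complex, -0.29 ± 0.13 and -0.25 ± 0.13, with adjusted p-values of 0.136 and 0.167 (limma). The spread of *Uqcrq* was wide, from 2845 to 4951 normalized counts within clone 18, where the highest was tumor 13.

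Complex IV, the cytochrome c oxidase, had 0 rises and 4 falls among its 18 members in clone 4 (*Cox6a2*, *Cox6c*, *Cox5a* and *Cox4i1*) and 0 rises and 2 falls in clone 18 (*Cox6a2* and *Cox6c*). Its median log2 difference was -0.09 in clone 4 and -0.06 in clone 18. Lower calls covered 10.0% of all genes in clone 4 and 14.2% in clone 18. Several of its subunits exist as a ubiquitous form and a form of certain tissues or conditions. The 11 ubiquitous subunits held 3 of the falls in clone 4 and 1 in clone 18. *Cox7a2l*, known as a factor of respiratory supercomplexes, did not pass in either clone.

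*Cox6a2*, the heart and skeletal muscle form of subunit VIa (chromosome 7, 128205435 to 128206387), had the largest log2 difference of any member. Its normalized counts were 33.7, 103.0, 32.5, 78.4 and 37.0 in control, 13.5, 4.8, 10.9, 11.4 and 13.4 in clone 4, and 15.3, 4.9, 17.0, 15.0 and 34.7 in clone 18. Every tumor of clone 4 lay below every control tumor, and clone 18 overlapped control through tumor 15. The log2 difference was -2.20 ± 0.45 in clone 4 (adjusted p = 0.00259, limma) and -1.71 ± 0.45 in clone 18 (adjusted p = 0.0105). In clone 18 the two-sample test gave an adjusted p of 0.0607.

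The low level of *Cox6a2* sets limits on what this fall shows. Its knockout values rest on 4 to 31 reads in a tumor, and its level of 41.7 normalized counts per kilobase of exon over all tumors compares with 8826 for the ubiquitous *Cox6a1*. Of 13 skeletal muscle markers, 0 fell in either clone by limma, and their median log2 difference was 0.86 in clone 4 and 2.48 in clone 18. By limma 2 of these markers had an unadjusted p under 0.05 in clone 4 and 6 in clone 18, with directions not given here. These markers summed to 223.1 to 538.9 in control, 108.2 to 4438 in clone 4 and 221.4 to 3210 in clone 18, and 1 of the markers rose in clone 18. The gene overlaps *Itgad* on the other strand, an integrin subunit gene of myeloid cells that was not analysed here. Of 6 macrophage markers, 2 fell in clone 4 and 5 in clone 18, where 1 rose. Over all genes 10.0% were lower in clone 4 and 14.2% in clone 18. The part of the macrophage markers in the *Cox6a2* result was not tested.

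The isoforms were set against their ubiquitous partners within each tumor, which cancels the scaling of the library. The mean log2 ratio of *Cox6a2* to *Cox6a1* was -6.90 ± 0.72 (SD, n = 5) in control, -9.02 ± 0.51 in clone 4 and -8.68 ± 0.92 in clone 18. The two-sided exact permutation p was 0.00794 in clone 4, the smallest that 252 splits allow, and 0.0159 in clone 18, both 0.0595 after adjustment over the 15 ratios tested. *Cox7a1* to *Cox7a2*, muscle against ubiquitous, was -6.15 ± 0.19 in control and -5.62 ± 0.34 in clone 4 (exact permutation p = 0.0159, adjusted 0.0595), and -5.94 ± 0.26 in clone 18 (p = 0.167, adjusted 0.278). *Cox4i2* to *Cox4i1*, where *Cox4i2* is a form of lung and low oxygen, was -9.02 ± 0.62 in control, -8.45 ± 0.31 in clone 4 and -9.01 ± 0.29 in clone 18, and between the clones the exact permutation p was 0.0159 (adjusted 0.0595). None of the 15 ratios passed 0.05 after adjustment. A single ratio at the smallest p of the 252 splits could not have passed either, so this result does not show that the ratios were unchanged.

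The other partners showed no called change. *Cox6b2*, known from testis, ranged from 7.0 to 19.7 normalized counts in control, 7.6 to 17.4 in clone 4 and 14.8 to 36.7 in clone 18, with an adjusted p of 0.151 in clone 18 (limma). *Cox8b*, a muscle form, had at most 4.5 normalized counts in a tumor and was at 0 in 5 of the 15, so no difference was detectable at this depth. *Ndufa4l2*, a gene induced by hypoxia, ranged from 127.7 to 298.1 in control, 92.6 to 254.0 in clone 4 and 130.4 to 184.6 in clone 18. It overlaps *Shmt2*, which fell in both clones (log2 differences of -0.51 and -0.83).

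*Cox6c*, a small ubiquitous subunit (chromosome 15, 35925886 to 35938246), fell in both clones. Its normalized counts were 5891, 6430, 5647, 6792 and 5199 in control, 4634, 3982, 5088, 5636 and 4889 in clone 4, and 5198, 4911, 5485, 4921 and 4358 in clone 18. In each clone 4 of 5 tumors lay below every control tumor. Its log2 difference was -0.31 ± 0.09 in clone 4 (adjusted p = 0.0269, limma) and -0.27 ± 0.09 in clone 18 (adjusted p = 0.0421). In clone 18 the call held in 4 of 12 other settings and was lost without any of tumors 1, 2, 3, 4, 11, 12, 14 and 15. In clone 4 it was lost under quantile normalization, without trend, in the two-sample test and with chromosome centring (adjusted p up to 0.153), and when any of tumors 2, 4, 6 and 7 was left out.

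*Cox5a* and *Cox4i1* fell in clone 4. *Cox5a*, a structural subunit chosen for description after its values were seen, had 3567 to 4758 normalized counts in control and 3142 to 3555 in clone 4, without overlap, and a log2 difference of -0.28 ± 0.07 (adjusted p = 0.0130, limma). In clone 18 it ranged from 3318 to 4033, and its log2 difference was -0.16 ± 0.07 (adjusted p = 0.129). *Cox4i1*, the ubiquitous form of subunit IV, had -0.22 ± 0.07 in clone 4 (adjusted p = 0.0412, limma) and -0.16 ± 0.07 in clone 18 (adjusted p = 0.121), and its call in clone 4 was lost in 3 of 12 other settings (adjusted p up to 0.0849) and without any of tumors 1, 4, 5, 6, 7, 8, 10 and 11. *Cox4i1* overlaps *Emc8* on the other strand, which fell in both clones (-0.33 and -0.31). Per kilobase of exon *Cox4i1* was the second highest member, at 11854 normalized counts over all tumors.

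Complex V, the ATP synthase, had 0 rises and 3 falls among its 15 members in clone 4 (*Atp5g2*, *Atp5j* and *Atp5o*) and 0 rises and 2 falls in clone 18 (*Atp5j* and *Atp5o*). Its median log2 difference was -0.02 in clone 4 and -0.04 in clone 18. Beside these falls, 10.0% of all genes were lower in clone 4 and 14.2% in clone 18. The 5 subunits of the catalytic F1 head had 0 calls by limma or edgeR in either clone (1 at an unadjusted p under 0.05 in each by limma), whereas DESeq2 called *Atp5b* higher in clone 4 and *Atp5a1* lower in clone 18. They include *Atp5b* and *Atp5a1*, the beta and alpha subunits, whose levels of 13395 and 9471 normalized counts per kilobase of exon are among the 3 highest of the members. *Atp5b* had log2 differences of 0.18 ± 0.08 in clone 4 (adjusted p = 0.135, limma) and 0.07 ± 0.08 in clone 18 (adjusted p = 0.549).

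Among the 4 subunits of the stator, which holds the head against the turning ring, 2 fell in both clones, as did 7.08% of all genes. *Atp5j*, coupling factor 6 (chromosome 16, 84827866 to 84835625), had 3706, 3858, 4233, 4091 and 3558 normalized counts in control, 3310, 2854, 3439, 3285 and 3198 in clone 4, and 3083, 2867, 3111, 2551 and 2407 in clone 18. All 10 knockout tumors lay below every control tumor. This gave a log2 difference of -0.27 ± 0.08 in clone 4 (adjusted p = 0.0227, limma) and -0.48 ± 0.08 in clone 18 (adjusted p = 0.000329). The call of *Atp5j* in clone 4 was lost when any of tumors 3, 4 and 7 was left out (adjusted p up to 0.0614). It was also lost with the chromosome centring described below (adjusted p = 0.274, limma). *Gabpa*, which shares the promoter printed above and overlaps *Atp5j*, had -0.10 ± 0.08 in clone 4 (adjusted p = 0.428, limma) and -0.42 ± 0.08 in clone 18 (adjusted p = 0.000988).

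*Atp5o*, the subunit that confers oligomycin sensitivity (chromosome 16, 91925214 to 91931687), had 11666, 11055, 12147, 12287 and 11421 normalized counts in control, 10043, 9235, 10031, 10578 and 9856 in clone 4, and 9385, 8959, 11528, 8359 and 9669 in clone 18. Clone 4 did not overlap control, and in clone 18 only tumor 13 reached the control range. The log2 difference was -0.24 ± 0.07 in clone 4 (adjusted p = 0.0341, limma) and -0.30 ± 0.07 in clone 18 (adjusted p = 0.00659). In clone 4 the call was lost in 4 of 12 other settings and when any of tumors 1, 3, 4, 5, 6, 7, 8 and 10 was left out.

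The c-ring, the rotor of the synthase, is built from a single mature protein encoded by *Atp5g1*, *Atp5g2* and *Atp5g3*. *Atp5g2* (chromosome 15, 102662864 to 102672352) had 6300, 6234, 6000, 6751 and 6173 normalized counts in control, 4773, 3861, 4425, 4865 and 4327 in clone 4, and 5264, 5361, 6642, 4952 and 5553 in clone 18. Clone 4 lay below both other groups without overlap, and in clone 18 4 of 5 tumors lay below every control tumor. Its log2 difference was -0.50 ± 0.08 in clone 4 (adjusted p = 0.000233, limma), -0.19 ± 0.08 in clone 18 (adjusted p = 0.0899) and 0.32 ± 0.08 for clone 18 against clone 4 (adjusted p = 0.0244). *Atp5g1* had -0.07 ± 0.08 in clone 4 and -0.15 ± 0.08 in clone 18, and *Atp5g3* had -0.07 ± 0.07 and -0.16 ± 0.07. Thus in clone 4 the c-ring genes did not fall together, with 1 of 3 past the threshold. The difference between the clones was lost in limma without trend, in the two-sample test, after the correction for length and GC content, and without any of tumors 7, 8 and 15.

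Of the pair that carries the name without being a subunit, *Atp5sl* fell in both clones. It had 1071, 955.6, 1112, 1105 and 1051 normalized counts in control, 928.6, 850.5, 837.5, 848.8 and 857.7 in clone 4, and 1043, 760.4, 820.7, 754.8 and 976.2 in clone 18. Clone 4 did not overlap control, and 3 of 5 tumors of clone 18 lay below it. This gave a log2 difference of -0.29 ± 0.09 in both clones (adjusted p = 0.0324 in clone 4 and 0.0239 in clone 18, limma). It was lost in clone 4 without any of tumors 1, 3, 4, 5, 7, 8, 9 and 10, and in clone 18 without any of tumors 3, 4, 12 and 14 and in the two-sample test (adjusted p = 0.0850). *Atp5s* had 0.19 ± 0.12 and 0.29 ± 0.12, with adjusted p-values of 0.327 and 0.0999.

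**Figure D2:**
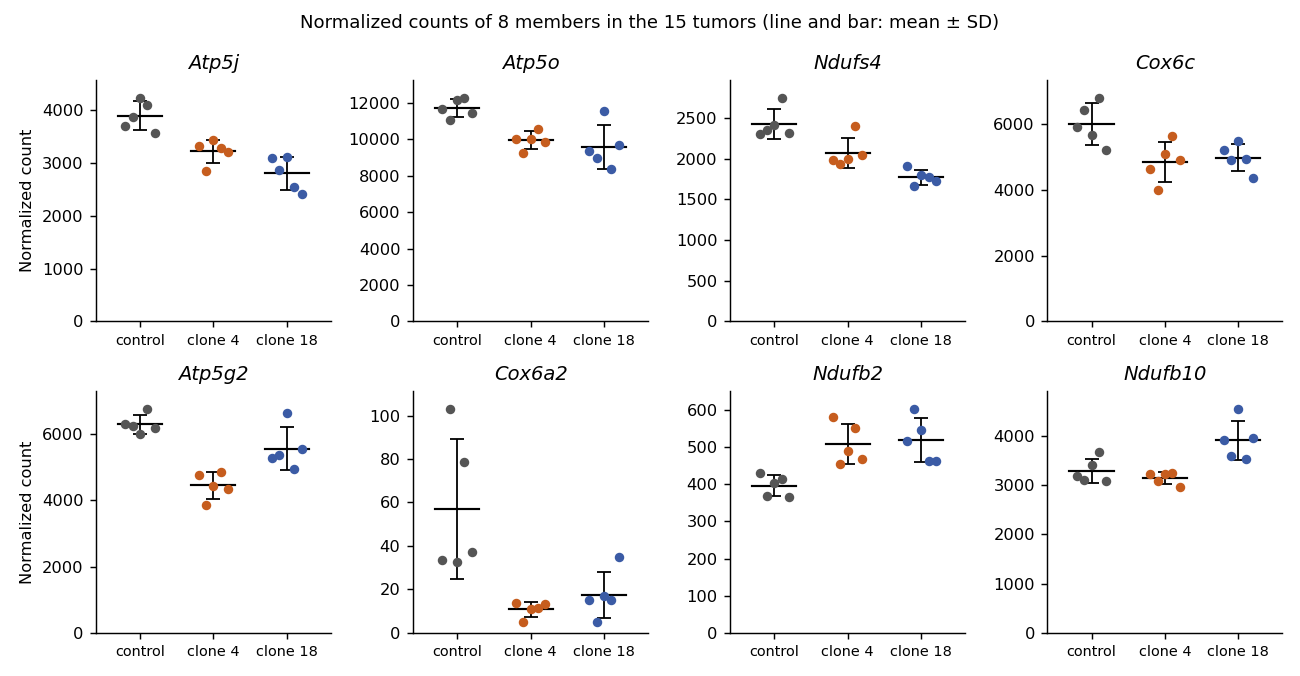
Normalized counts (vertical axis, from 0) of 8 members in the 5 tumors of each group, with the mean and SD as a line and bar. All 10 knockout tumors lie below the control tumors for Atp5j and above them for Ndufb2, Atp5g2 is lowest in clone 4, and Ndufb10 is highest in clone 18.

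Several of the called members lie on chromosomes whose genes as a whole were lower. The 3 members of chromosome 16 (*Atp5j*, *Atp5o* and *Ndufb4*) all fell in clone 18, and the median log2 difference of the 494 genes of that chromosome with a mean of at least 10 was -0.27 there and -0.14 in clone 4. In clone 18, 44.9% of these genes were called lower, and in clone 4 22.5% were. Chromosome 15 carries *Cox6c* and *Atp5g2* among its 4 members, and the median over its 601 genes was -0.12 in clone 4 and -0.08 in clone 18. The mitochondrial ribosomal protein genes *Mrps6* and *Mrpl39*, also on chromosome 16, fell in both clones (log2 differences of -0.38 and -0.51, and of -0.28 and -0.39).

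The genes next to the called members of these chromosomes also had medians below 0 in both clones. Within 2000000 bases of *Atp5j* the median of 8 genes was -0.21 in clone 4 and -0.41 in clone 18, beside -0.27 and -0.48 for *Atp5j* itself. For *Atp5o* the 42 neighbours had medians of -0.22 and -0.36, and for *Ndufb4* the 40 neighbours had -0.15 and -0.25. The 57 neighbours of *Atp5g2* had -0.29 in clone 4 and -0.18 in clone 18, and the 17 of *Cox6c* had -0.16 and -0.21. For *Ndufs4* the 16 neighbours had 0.07 and -0.07, and for *Cox5a* the 56 neighbours had 0.05 in clone 4. The 35 neighbours of *Ndufb2* had 0.15 and 0.06.

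An alternative chosen after these values were seen centred each tumor's log2 values on the median of the gene's chromosome. The log2 differences in clone 18 were then -0.20 for *Atp5j* (adjusted p = 0.0646, limma), -0.02 for *Atp5o* (adjusted p = 0.855) and 0.04 for *Ndufb4* (adjusted p = 0.823), so that of *Ndufb4* changed sign and none of the 3 passed. In clone 4 neither *Atp5j* (-0.13, adjusted p = 0.274, limma) nor *Atp5o* (-0.10, adjusted p = 0.446) passed. *Cox6c* no longer passed in either clone, and *Ndufb2* no longer passed in clone 4 (adjusted p = 0.0646). *Ndufs4*, *Cox6a2* and *Atp5sl* still fell in both clones, and *Atp5g2*, *Cox5a* and *Cox4i1* in clone 4. The centring uses the whole chromosome, so a shift of a region alone stays in the values. For *Atp5g2* in clone 4 the chromosome median was -0.12 and that of the 57 neighbours -0.29. With this centring 6 members were lower in clone 4 and 5 in clone 18, where *Ndufb3* no longer passed (adjusted p = 0.0582) and *Ndufa9* and *Sdhd* did. Of the other genes named, *Gabpa* (adjusted p = 0.189) no longer passed in clone 18, and neither *Mrpl39* (adjusted p = 0.0833 in clone 4 and 0.104 in clone 18) nor *Suclg2* (0.116 and 0.132) passed in either clone. Copy number was not measured, and its part in these shifts was not tested.

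**Figure D3:**
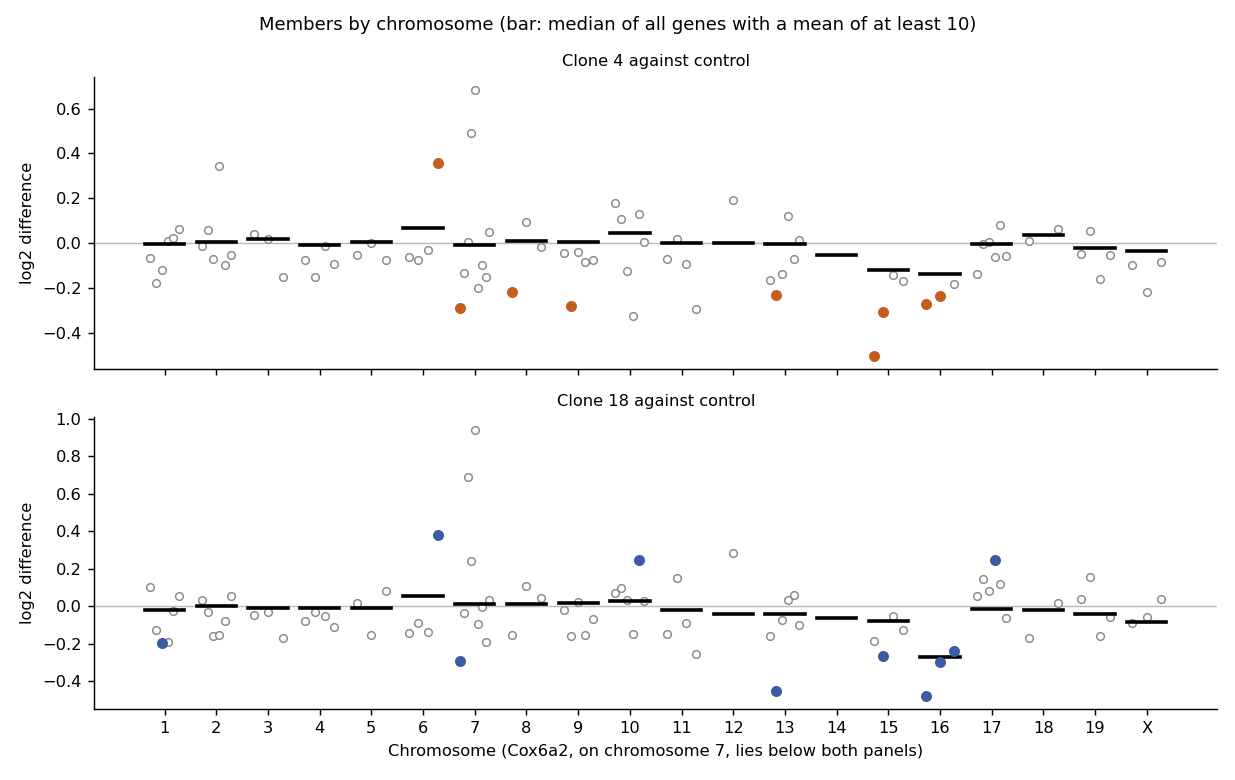
Log2 differences from control (vertical axis) of the members on each chromosome (horizontal axis), filled where past the threshold, with the median of all genes of the chromosome as a black bar, in clone 4 (top) and clone 18 (bottom). The bar of chromosome 16 lies at -0.14 in clone 4 and -0.27 in clone 18, and all 3 of its members are filled in clone 18.

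The level of the members as a group varied from tumor to tumor within each group. The median deviation of the 83 members from the control mean ranged from -0.06 to 0.11 on the log2 scale in the control tumors, from -0.15 to 0.03 in clone 4 and from -0.12 to 0.08 in clone 18. The highest value was that of control tumor 4, in which 76 of the members lay above the control mean. Over all genes with a mean of at least 10 the same median stayed between -0.03 and 0.02. Without control tumor 4 the members called lower went from 9 to 3 in clone 4 (*Atp5g2*, *Cox5a* and *Cox6a2*) and from 8 to 4 in clone 18 (*Atp5j*, *Atp5o*, *Cox6a2* and *Ndufs4*). Over all genes the lower calls went from 1831 to 1539 in clone 4 and from 2598 to 2347 in clone 18.

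**Figure D4:**
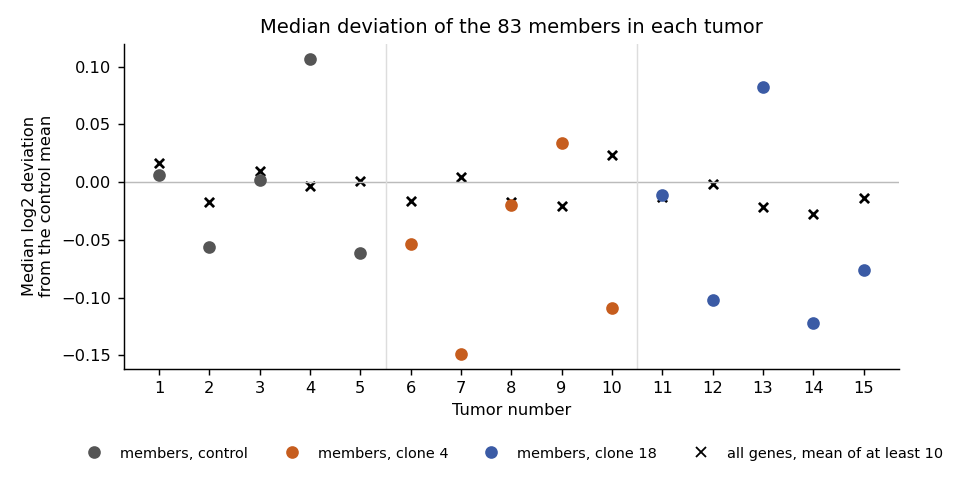
Median log2 deviation of the 83 members from the control mean (vertical axis) in each of the 15 tumors (horizontal axis), coloured by group, with crosses for all genes with a mean of at least 10. Tumor 4 is highest at 0.11 and tumor 7 lowest at -0.15, and the 3 groups overlap.

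Other genes of mitochondrial energy metabolism moved in both directions, as far as the lists cover them. Beside the counts of these lists, 6.79% of all genes were higher and 10.0% lower in clone 4, and 10.4% and 14.2% in clone 18. Of 48 assembly factors, 3 were higher and 2 lower in clone 4, and 5 higher and 6 lower in clone 18. *Ndufaf5*, a complex I assembly factor, rose from 611.2 to 825.3 normalized counts in control to 956.9 to 1057 in clone 4 and 932.2 to 1153 in clone 18, without overlap (log2 differences of 0.42 ± 0.08 and 0.50 ± 0.08). *Bcs1l*, which inserts the iron-sulfur protein into complex III, rose by 0.34 ± 0.09 and 0.40 ± 0.09. *Uqcc3*, a complex III assembly factor, had -0.39 ± 0.08 and -0.25 ± 0.08, past the threshold in both. In clone 18 the call of *Uqcc3* was lost under quantile normalization, with edgeR and with chromosome centring (adjusted p up to 0.107), and without any of tumors 1, 5, 12 and 14 (up to 0.0726). That of *Bcs1l* in clone 4 was lost without tumor 2 or 6 (up to 0.0532).

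The 10 subunits encoded by mitochondrial DNA had 0 calls by limma in the comparisons of each clone with control, with 1 at an unadjusted p under 0.05 in clone 4 and 2 in clone 18. Their summed normalized count was 184342 to 333159 in control, 163154 to 692927 in clone 4 and 150627 to 355091 in clone 18. Of the 14 genes of the citric acid cycle, 1 rose and 1 fell in clone 4 and 1 rose and 2 fell in clone 18. *Dld*, the dihydrolipoamide dehydrogenase, fell in both clones (-0.25 ± 0.06 and -0.41 ± 0.06), and *Suclg2*, a subunit of succinyl-CoA ligase, rose in both (0.25 ± 0.08 and 0.21 ± 0.08, with adjusted p-values of 0.0304 and 0.04999 by limma). The call of *Suclg2* was lost without trend, in the two-sample test and with chromosome centring in both clones, in clone 18 also with a pseudocount of 0.1, and without any of 6 tumors in clone 4 (1, 2, 5, 6, 7 and 9, adjusted p up to 0.0817) and of 11 in clone 18 (all but 4, 9, 10 and 12, up to 0.121). Of 6 electron carriers, 1 was higher in clone 4 and 1 lower in clone 18.

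Among 16 regulators of mitochondrial gene expression, 3 rose and 1 fell in clone 4, and 2 rose and 3 fell in clone 18. *Tfb2m*, a mitochondrial transcription factor, fell in both clones (-0.26 ± 0.07 and -0.30 ± 0.07), and *Ssbp1*, which binds single-stranded mitochondrial DNA, rose in both (0.29 ± 0.06 and 0.26 ± 0.06). The call of *Tfb2m* in clone 4 was lost without tumor 3 or 8 (adjusted p up to 0.0543). Of 79 mitochondrial ribosomal proteins, 6 were higher and 5 lower in clone 4, and 5 higher and 15 lower in clone 18. The shares over all genes were 6.79% and 10.0% in clone 4, and 10.4% and 14.2% in clone 18. *Mrpl42*, one of these mitochondrial ribosomal proteins, rose in both clones (0.30 ± 0.08 and 0.36 ± 0.08). Of 83 cytosolic ribosomal proteins, 1 was higher and 2 lower in clone 4, and 1 higher and 6 lower in clone 18, with *Rpl13a* higher in both (0.52 ± 0.13 and 0.49 ± 0.13) and *Rpl37a* lower in both (-0.21 ± 0.07 and -0.24 ± 0.07). The call of *Rpl37a* in clone 4 was lost in 6 of 12 other settings (adjusted p up to 0.0959) and without any of tumors 1, 2, 4, 5, 6, 7, 8, 11 and 15 (up to 0.123), and in clone 18 under quantile normalization (0.0540). That of *Rpl13a* in clone 18 was lost in the two-sample test (0.0747).

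Of 14 glycolysis genes, 0 were higher and 1 was lower in clone 4, and 0 passed in clone 18 by limma, where 0 had an unadjusted p under 0.05. Of 8 genes of the hypoxia response, 1 was higher in clone 4 and 2 in clone 18, and *Ankrd37*, a target of hypoxia-inducible factor, was higher in both, with log2 differences of 1.10 ± 0.32 (adjusted p = 0.0265, limma) and 1.71 ± 0.32 (adjusted p = 0.00103). *Ankrd37* ranged from 210.1 to 728.3 normalized counts in control, from 427.2 to 1317 in clone 4 and from 900.6 to 1354 in clone 18, so clone 4 overlapped control and clone 18 did not. In clone 4 the call was lost without trend and in the two-sample test (adjusted p up to 0.151) and without any of tumors 1, 3, 8, 9 and 10 (up to 0.0715). The shares of these lists were not tested against those of other genes. Over all genes 6.79% were higher and 10.0% lower in clone 4, and 10.4% and 14.2% in clone 18. Beside these lists, 3 of 7 T cell markers fell in clone 4 and 4 in clone 18, 2 of 6 adipocyte markers fell in clone 4 and 1 in clone 18, and 0 of 6 endothelial, 6 fibroblast, 5 pericyte and 6 proliferation markers passed in either clone by limma. Of 5 neutrophil markers, 1 fell in clone 18, and of 10 renal tubular markers 1 rose in each clone while 1 fell in clone 4 and 3 in clone 18.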

How the data were processed

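RNA from 15 Renca tumors was sequenced, 5 per group. The deposited values are DESeq-normalized counts per gene (a signal rounded to 0.1), made by the authors with TopHat2 on mm10, HTSeq and DESeq, and their versions are not given in the sources used here. Dividing each tumor by the value of 1 read gave whole reads for 100% of values up to 8000, within 0.1 of a step, and 32924414 to 49099168 reads on genes per tumor. How reads shared with near-identical copies or pseudogenes were counted is not given in the sources used here.

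Differences were tested on log2(normalized count + 1) with limma 3.58.1 in R 4.3.3 (trend, 3 groups in 1 fit, and a second fit of the 10 knockout against the 5 control tumors) over the 18250 genes above 0 in some tumor, with Benjamini-Hochberg adjustment and a threshold of 0.05. edgeR 4.0.16 on the recovered reads called 3092 genes in clone 4 and 4536 in clone 18, where limma called 3071 and 4499, and DESeq2 1.42.0 was run too. Isoform ratios had exact two-sided permutation tests. Positions and exon lengths are from GENCODE M21 (GRCm38), with 17975 genes matched (98.3%), and the promoters from RefSeq. Python 3.11.15 was used for tables and figures. The procedure was tested on simulated data.

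Labels name the tumors as separate samples. The members and lists were chosen with earlier results of these data known. Genes were named by a fixed rule: the isoforms and their partners, complex II, the largest changes called in both clones in each complex and in all, members called between the clones, up to 3 genes called in both clones per list, *Pbrm1*, and the highest and lowest levels per kilobase. Other alternatives were 2 further pseudocounts, other scalings, a mean filter of 10, and corrections for length and GC content. The first length correction, a spline of means, shifted all genes and was replaced, after its result was seen, by a robust lowess curve. *Itgad*, *mt-Nd4l*, *mt-Co2*, *mt-Atp6*, *Ucp1* and *Cidea* were not analysed here.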

Additional observations from a re-analysis of the deposited data

Results flagged for a closer look

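Within groups of 5 tumors, 7 of the 90 groups tested over 30 members held a tumor far from the others by Dixon's criterion (ratio above 0.71), where chance gives about 4.5 if the groups are independent. They are not, since the same tumors recur across genes, so no excess can be read from these numbers. In clone 18, tumor 13 had 8709.9 normalized counts of *Cox6a1* (others 5982.2 to 6108.1) and 7374.7 of *Cox8a* (others 5328.8 to 5803.6). In control, tumor 4 had 2752 of *Ndufs4* (others 2307.1 to 2411.9) and 3754.9 of *Ndufb4* (others 2902.3 to 3101.9), and tumor 2 had 47828.2 of *Atp5b* (others 53972 to 56458.6). In clone 4, tumor 9 had 2399.6 of *Ndufs4* (others 1939.8 to 2041.9) and tumor 6 had 928.6 of *Atp5sl* (others 837.5 to 857.7).

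The effects of the clones differed for 2 members by limma over all genes. The log2 difference from control was -0.50 in clone 4 and -0.19 in clone 18 for *Atp5g2*, a difference of 0.317 (adjusted p = 0.0244). It was -0.06 and 0.24 for *Ndufb10*, a difference of 0.307 (adjusted p = 0.0164).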

How the results depend on the processing

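No paired analysis was possible because the replicate numbers only name the tumors and were given in accession order. In clone 4 the count of members higher went from 1 to 2 with DESeq2 and with the length and GC correction, and to 0 with chromosome centring, an alternative chosen after seeing the data. In clone 18 the count higher went from 3 to 5 under quantile normalization, and the count lower from 8 to 5 under quantile normalization, 4 in the two-sample test, 18 with the length correction, 17 with the length and GC correction and 5 with chromosome centring. Between the clones the count higher went from 2 to 1 without trend and with the length and GC correction, and to 0 in the two-sample test. For all knockout tumors the count higher went from 1 to 2 under upper quartile scaling, quantile normalization, edgeR, DESeq2 and both length corrections, and the count lower from 11 to 7 under quantile normalization and 6 with chromosome centring. The log2 difference of *Ndufb4* in clone 18 turned from -0.24 to 0.0353 with chromosome centring. The cause was not tested.

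With 1 tumor left out, the members higher numbered 0 to 1 in clone 4, 2 to 4 in clone 18, 1 to 2 between the clones and 1 to 2 for all knockout tumors, and those lower 3 to 11, 4 to 11, 0 to 0 and 6 to 13. The lower count in clone 4 was 3 without tumor 4, 4 without tumor 7 and 5 without any of tumors 3, 6 and 10, and in clone 18 it was 4 without tumor 3 or 4 and 5 without tumor 12 or 14. Over all genes the lower calls in these fits numbered 1472 to 1966 in clone 4 and 2170 to 2648 in clone 18. With a tumor left out, the median over members was between -0.08 and -0.03 in clone 4 and between -0.08 and -0.02 in clone 18, and over the other settings it reached -0.05 in clone 4 and 0.000214 in clone 18, under quantile normalization. Calls kept in all 12 alternatives and all 15 fits with a tumor left out were 3 of 10 in clone 4 (*Atp5g2*, *Cox5a* and *Cox6a2*) and 2 of 11 in clone 18 (*Ndufb2* and *Ndufs4*), and 0 of 2 between the clones. Depth limits *Cox8b* and *Cox6a2*.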
